A study of Rattus norvegicus with 8 samples.

Results

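Genes of the lysosome were followed across rat hippocampal slice cultures, thin pieces of hippocampus maintained in culture. The list held 38 genes for cathepsins, other acid hydrolases, lysosomal membrane proteins and parts of the proton pump. A probe set assigned to that gene symbol alone was found for 35 of them, and Galns, Npc1 and Sgsh had none. Each gene was read by the probe set with the highest mean over the arrays, out of 48 probe sets for these genes among 31099 on the array. Total RNA was taken from CA1 or CA3, the main pyramidal cell fields, and each of the 8 arrays carried RNA of 15 subdissected cultures at a stated time of 7 days. CA1 control and CA3 control had 3 arrays each, numbered 1 to 3 in both fields, while CA1 lesion and CA3 lesion had 1 array each, both numbered 1. Strain, age, genotype, the kind of lesion and the event from which the days run are not stated in the labels. Nothing in the labels ties the arrays to separate animals or preparations, so p-values measure only how much these samples vary, and that variation may be technical.

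Lysosomes are acidic organelles that break down proteins, glycans and lipids delivered by endocytosis, phagocytosis and autophagy. Cathepsins are their proteases, glycosidases and sulfatases take apart glycans, and a vacuolar ATPase pumps the protons that keep the lumen acid. Nearly all animal cells have lysosomes, but microglia, the phagocytes of the brain, carry an especially large load of them and make cathepsin S at a high level. Many lysosomal genes share a promoter element, the CLEAR element, around the E-box CACGTG, which is bound by the transcription factor TFEB and its relatives.

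The promoters of the genes differed in this element. RefSeq promoters of the GRCr8 rat assembly, 250 bases before to 50 after the annotated start, were found for 28 of the 35 genes; Ctsb, Hexa, Arsb, Psap, Asah1, Ppt1 and Atp6v1h had no entry. CACGTG, a palindrome, occurred in 7 of these 28 promoters (25.0%) and in 6.7% of all 27457 promoters of the same length. TCACGTG, searched on both strands and always overlapping a CACGTG, occurred in 6 of 28 (21.4%) against 3.43% of all promoters, in Ctsd, Lamp1, Glb1, Gaa, Mcoln1 and Atp6v0d1. The 200 bases before the start are shown for 4 of these genes, which cover a protease, a membrane protein, the channel and the pump, and for Ctss, the gene with the widest range over the arrays, which held no match. Capitals mark CACGTG with its flanking T or A where that completes TCACGTG on either strand, and each sequence runs 5′ to 3′ towards the start.
Lamp1 (chr16:83075064-83075263, minus strand): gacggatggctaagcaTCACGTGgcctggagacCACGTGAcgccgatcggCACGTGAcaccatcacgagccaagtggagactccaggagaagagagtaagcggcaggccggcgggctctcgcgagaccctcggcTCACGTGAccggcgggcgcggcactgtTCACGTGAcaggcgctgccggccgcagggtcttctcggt
Ctsd (chr1:206968822-206969021, minus strand): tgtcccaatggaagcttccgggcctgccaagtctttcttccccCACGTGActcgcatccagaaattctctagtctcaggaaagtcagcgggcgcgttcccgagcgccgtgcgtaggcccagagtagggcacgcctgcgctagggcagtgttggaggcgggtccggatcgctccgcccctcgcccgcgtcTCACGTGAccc
Mcoln1 (chr12:6358058-6358257, plus strand): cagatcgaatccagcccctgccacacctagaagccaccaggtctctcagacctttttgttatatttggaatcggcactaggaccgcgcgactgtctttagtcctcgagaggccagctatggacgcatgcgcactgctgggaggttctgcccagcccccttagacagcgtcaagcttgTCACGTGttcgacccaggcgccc
Atp6v0d1 (chr19:50357249-50357448, minus strand): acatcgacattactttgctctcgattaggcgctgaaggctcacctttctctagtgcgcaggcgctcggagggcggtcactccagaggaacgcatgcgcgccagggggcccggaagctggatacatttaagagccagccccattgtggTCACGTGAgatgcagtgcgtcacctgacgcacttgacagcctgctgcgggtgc
Ctss (chr2:185775196-185775395, plus strand): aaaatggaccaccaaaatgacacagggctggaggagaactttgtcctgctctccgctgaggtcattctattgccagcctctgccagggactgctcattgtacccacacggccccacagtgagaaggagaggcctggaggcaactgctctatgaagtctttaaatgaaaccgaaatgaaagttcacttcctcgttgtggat
Lamp1 carried 5 copies of CACGTG in this stretch and Ctsd 2, while Mcoln1 and Atp6v0d1 carried 1 each. A second copy in the Mcoln1 promoter lay past the start. A match is a run of letters and was not taken as a site of binding.

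The arrays were alike in level and kept the identity of their fields. Median intensity ran from 560 to 814, and all arrays had a 2% trimmed mean of 2501. The 4 CA1 field markers had medians of 1.35 to 2.24 log2 units relative to the mean of the arrays in CA1 and of -2.31 to -1.33 in CA3. As a sign of RNA degradation, the 3'/5' signal ratio of Gapdh was read on each array. In CA1 it was 3.71 in control 1, 4.98 in control 2 and 5 in control 3, and in CA3 it was 3.84, 3.75 and 3.93. The lesion arrays had 4.65 (CA1) and 5.23 (CA3). Its part in the results was not tested. Values below are log2(intensity + 16), rounded to 2 decimals (whole where both are 0), and differences on this scale understate changes of dim probe sets. All 35 genes passed the filter on dim probe sets, with Neu1 the dimmest at the 53.6th percentile of mean signal. Levels of different genes are not compared, since each probe set has a response of its own.

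Among the controls, the cultures numbered 3 held more message of 13 lysosomal genes than those numbered 1, of which 7 encode proteases, 2 glycan enzymes and 4 other proteins (Lamp2, Cd63, Npc2 and Grn). This fit takes the arrays of one number in CA1 and CA3 as a set, which the labels do not state, and the contrast was chosen with earlier results known. Of the 35 genes, 13 rose and 0 fell in a limma fit of the 6 control arrays with field and number as terms, against 2.87% of the 18625 probe sets tested that rose and 1.64% that fell. The 13 were Ctsb, Ctsc, Ctsh, Ctsl, Ctss, Ctsz, Lamp2, Cd63, Gusb, Man2b1, Npc2, Lgmn and Grn. The median over the 35 genes was 0.41, and -0.01 over all probe sets tested. The difference was positive for 26 genes, against 49.6% of all probe sets, and 21 had an unadjusted p under 0.05, against 17.3%. Control 3 lay above control 1 and control 2 in both fields for 20 of the 35 genes (57.1%), against 17.1% of all probe sets tested. It lay above control 1 in both fields for 21 genes (30.2% of all probe sets) and below it in both for 6, Laptm4a, Gaa, Arsb, Mcoln1, Atp6v0d1 and Atp6v1h (31.0% of all probe sets). On the second probe set of Arsb, however, control 3 lay above control 1 in CA1, and the difference over both fields was 0.08. On that of Atp6v1a control 3 lay below control 1 in both fields (13.17 against 13.50 in CA1, 13.13 against 13.69 in CA3). The calls rest on variances that follow the signal: without this trend 0 of the 35 passed, and 14 had an unadjusted p under 0.05. In that setting 0 of all 18625 probe sets passed, so the calls of marker genes and other lysosomal genes given below are lost too. Without CA1 control 3, or without CA3 control 3, Ctsl, Ctss and Ctsz passed and the other 10 did not.

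Markers of several cell types differed between the same arrays. Earlier results of these data had shown glial lists to differ between the numbers, and controls 3 and 1 were compared with that known. The glial counts below are therefore a description and no independent finding. The 16 markers of microglia and macrophages had a summed intensity of 8438 to 8864 in the controls numbered 1, of 16012 to 21464 in those numbered 2, of 97713 to 116856 in those numbered 3 and of 119716 to 163441 in the lesion arrays. Of the 13 that passed the filter, 10 rose between controls 3 and 1 (median 3.30), against the 2.87% of all probe sets. The 9 markers of oligodendrocytes and myelin with a probe set, of which 8 passed the filter and 8 rose (median 3.09), had summed intensities of 62447 to 80864, 276619 to 297608 and 503831 to 668485 in the controls numbered 1, 2 and 3 and of 620411 to 683361 in the lesion arrays. Of 9 astrocyte markers 2 rose (9 positive, median 0.32), with summed intensities of 960222 to 1064377 in the controls numbered 1, 1147147 to 1509516 in those numbered 3 and 1438279 to 1554959 in the lesion arrays. Of 11 neuron markers 4 fell (11 negative, median -0.53, against 1.64% of all probe sets that fell), with summed intensities of 379613 to 520442 in the controls numbered 1 and 262928 to 382859 in those numbered 3. On the lesion arrays the neuron sums were 264233 to 369002. The mean lesion effect was positive for 0 of the 11 neuron markers (median -0.32), with 2 at an unadjusted p under 0.05 and 0 past the threshold in limma. Of all probe sets tested, 52.2% were positive for this effect, 6.41% had an unadjusted p under 0.05 and 0% passed in either direction. The part that cell makeup has in the lysosomal values was not tested, and in bulk RNA more cells of a type and more RNA per cell cannot be told apart.

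**Figure D1:**
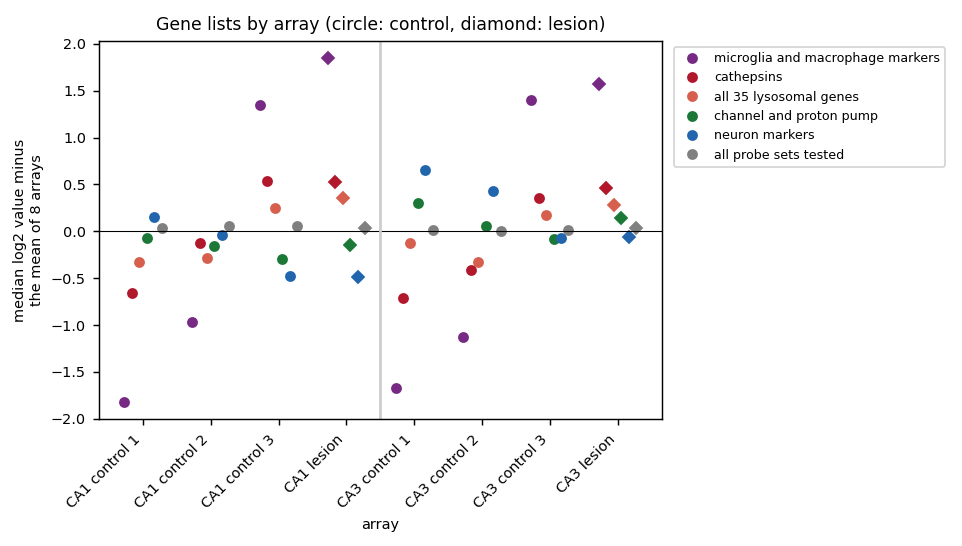
Median log2 value of 6 gene lists on each of the 8 arrays, relative to the mean of the arrays, with circles for controls and diamonds for lesion arrays. The microglia list spans -1.82 to 1.85, the cathepsins -0.71 to 0.54, and the median of all probe sets tested lies between 0.00 and 0.06.

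Among the role classes the cathepsins had the largest median difference. All 9 had a positive difference between controls 3 and 1, and 6 passed (class median 1.13). Ctss, which encodes the cysteine protease cathepsin S, stood at 10.38, 12.52 and 14.21 in CA1 controls 1 to 3, at 10.85, 12.08 and 13.96 in the CA3 controls, and at 14.75 and 14.28 in the lesion arrays (CA1, then CA3). In linear intensity this is 1318, 5875 and 18983 in CA1 controls 1 to 3 and 27472 in the CA1 lesion array. The controls numbered 3 approached the lesion arrays while those numbered 1 lay far below, and the lesion array was the highest of its field in both fields. Ctss was 11.1-fold higher in controls 3 than in controls 1 (3.47 ± 0.24, SE, 2 arrays each, limma adjusted p = 4.32e-06).

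Ctsz, the gene of a cysteine carboxypeptidase, followed the same order in both fields. Its values were 10.39, 11.10 and 13.05 in CA1 controls 1 to 3, 10.14, 10.55 and 12.50 in the CA3 controls, and 13.27 and 13.24 in the lesion arrays. The difference between controls 3 and 1 was 5.68-fold (2.51 ± 0.26, limma adjusted p = 1.64e-04). Controls 2 lay near controls 1 for this gene.

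Ctsc encodes dipeptidyl peptidase I, which activates granule proteases of immune cells. It stood at 10.84, 12.04 and 12.60 in CA1 controls 1 to 3, at 10.99, 11.50 and 12.45 in the CA3 controls, and at 12.89 and 12.71 in the lesion arrays. Ctsl, a cysteine endopeptidase, stood at 14.33, 14.72 and 15.66 in CA1, at 14.32, 14.96 and 15.87 in CA3, and at 15.69 and 15.88 in the lesion arrays. For both genes the lesion arrays were the highest of their field, but for Ctsl control 3 was all but level with them. Ctsc was 3.06-fold and Ctsl 2.72-fold higher in controls 3 than in controls 1 (1.61 ± 0.25 and 1.44 ± 0.15, limma adjusted p = 0.00319 and 1.31e-04). The second probe set of each gene gave 1.33 and 1.24, both past the threshold. On that of Ctsc, however, the CA3 lesion array (12.45) lay below CA3 control 3 (12.60), and the mean lesion effect was 0.78.

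Ctsh, an aminopeptidase, and Ctsb, an abundant cysteine protease, changed less. Ctsh stood at 13.21, 13.80 and 14.41 in CA1 controls 1 to 3, at 13.16, 13.47 and 14.23 in the CA3 controls, and at 14.53 and 14.14 in the lesion arrays. Ctsb stood at 15.27, 15.46 and 16.11 in CA1, at 15.48, 15.38 and 16.04 in CA3, and at 16.32 and 16.25 in the lesion arrays. The CA3 lesion array lay under CA3 control 3 for Ctsh, whereas for Ctsb both lesion arrays lay above all their controls. The differences between controls 3 and 1 were 2.19-fold for Ctsh and 1.62-fold for Ctsb (1.13 ± 0.16 and 0.70 ± 0.14, limma adjusted p = 0.00207 and 0.0186).

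The other 3 cathepsins did not pass. Ctsa, a serine carboxypeptidase that also protects other hydrolases, stood at 14.24, 14.45 and 14.73 in CA1 controls 1 to 3, at 14.41, 14.23 and 14.74 in the CA3 controls, and at 14.91 and 14.85 in the lesion arrays (0.41, limma adjusted p = 0.192). Ctsd, the aspartic protease whose promoter is shown above, stood at 14.35, 14.52 and 14.77, at 14.47, 14.25 and 14.44, and at 14.76 and 14.59 in the same order (0.19, limma adjusted p = 0.614). Its whole range over the arrays was 0.52, the narrowest of the cathepsins. Ctsk, best known as the collagen-degrading protease of osteoclasts, had no common order in the fields. It stood at 12.62, 12.35 and 13.05 in CA1 controls 1 to 3, at 12.19, 10.81 and 11.81 in the CA3 controls, and at 12.05 and 12.30 in the lesion arrays (0.03, limma adjusted p = 0.975).

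**Figure D2:**
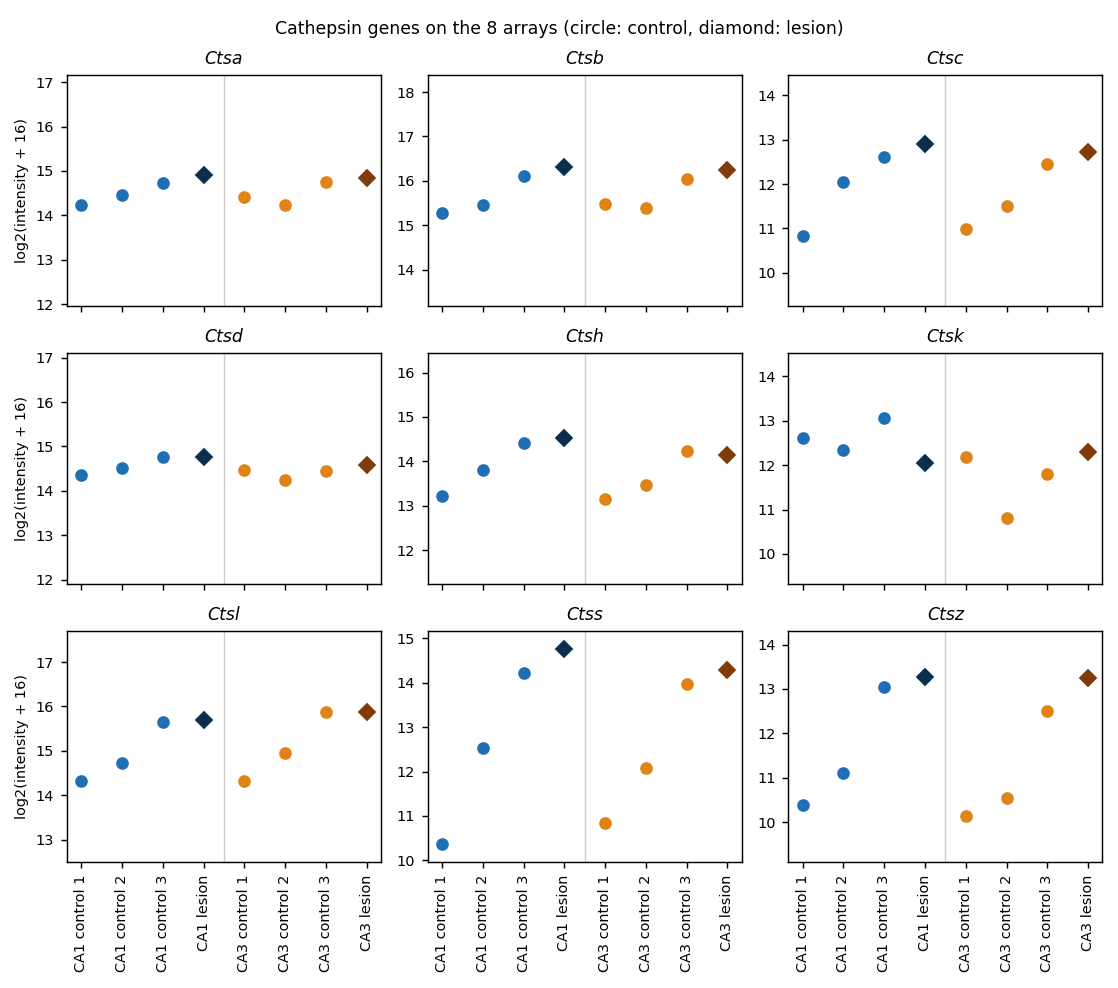
Log2(intensity + 16) of the 9 cathepsin genes on each array, with CA1 in blue, CA3 in orange, circles for controls and dark diamonds for lesion arrays; every panel spans the same number of log2 units. Ctss and Ctsz climb from under 11 in controls numbered 1 to over 13 in the lesion arrays, while Ctsd stays within 0.52 units.

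Membrane proteins of the lysosome split. Cd63, a tetraspanin of late endosomes, stood at 16.21, 16.50 and 16.95 in CA1 controls 1 to 3, at 16.08, 16.27 and 16.78 in the CA3 controls, and at 17.08 and 16.92 in the lesion arrays. Lamp2, a major glycoprotein of the lysosomal coat, stood at 14.76, 14.69 and 15.41 in CA1, at 14.41, 14.73 and 15.41 in CA3, and at 15.68 and 15.45 in the lesion arrays. Both rose between controls 1 and 3, Lamp2 1.77-fold and Cd63 1.64-fold (0.82 ± 0.16 and 0.72 ± 0.14, limma adjusted p = 0.0111 and 0.0112).

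Lamp1, the partner of Lamp2, stood at 15.93, 15.47 and 16.44 in CA1 controls 1 to 3, at 16.01, 15.73 and 16.23 in the CA3 controls, and at 16.51 and 16.59 in the lesion arrays. Here control 2 was the lowest in both fields, and controls 3 and 1 differed by 0.36 (limma adjusted p = 0.235). Scarb2, the receptor that carries glucocerebrosidase to lysosomes, differed by 0.59 and Laptm4a, a small transmembrane protein, by -0.37, neither past the threshold (adjusted p = 0.163 and 0.321).

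Of 9 enzymes of glycan breakdown, 2 rose between controls 1 and 3. Gusb, which encodes beta-glucuronidase, stood at 10.24, 10.60 and 11.27 in CA1 controls 1 to 3, at 9.86, 10.40 and 11.66 in the CA3 controls, and at 11.70 and 11.59 in the lesion arrays. Man2b1, the lysosomal alpha-mannosidase, stood at 11.75, 11.93 and 12.75 in CA1, at 11.68, 11.64 and 12.67 in CA3, and at 12.80 and 12.73 in the lesion arrays. Gusb was 2.66-fold and Man2b1 1.99-fold higher in controls 3 (1.41 ± 0.34 and 0.99 ± 0.21, limma adjusted p = 0.0355 and 0.0225), and Gusb also missed the threshold without CA3 control 1. Hexa, a subunit of beta-hexosaminidase, came closest among the rest at 0.56 (adjusted p = 0.0841).

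Naglu and Neu1 had wide ranges with no order of the arrays common to both fields. The lesion array lay above all its controls in CA3 alone for Naglu and in CA1 alone for Neu1. Naglu, an enzyme of heparan sulfate breakdown, stood at 10.99, 10.48 and 10.25 in CA1 controls 1 to 3, at 10.19, 8.34 and 10.33 in the CA3 controls, and at 10.73 and 11 in the lesion arrays. Most of its range of 2.67 came from CA3 control 2, and without that array its mean lesion effect was 0.45 in place of 0.77. Neu1, a sialidase, stood at 9.02, 9.63 and 9.39 in CA1, at 9.52, 9.99 and 8.22 in CA3, and at 9.90 and 9.43 in the lesion arrays. The acid alpha-glucosidase gene Gaa, beta-galactosidase (Glb1), alpha-galactosidase A (Gla) and arylsulfatase B (Arsb) had ranges of 0.41 to 0.90, and their differences between controls 3 and 1 ran from -0.42 for Arsb to 0.33 for Gla.

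Of 5 genes for lipid handling, Npc2 rose. It encodes the lumenal protein that hands cholesterol on for export, and it stood at 15.45, 15.53 and 16.14 in CA1 controls 1 to 3, at 15.49, 15.32 and 16 in the CA3 controls, and at 16.36 and 16.42 in the lesion arrays. Lipa, the acid lipase, stood at 11.86, 12 and 12.65 in CA1, at 12.33, 12.33 and 12.78 in CA3, and at 12.70 and 12.93 in the lesion arrays. The lesion arrays were above all their controls for both genes. Npc2 differed 1.51-fold between controls 3 and 1 (0.60 ± 0.14, limma adjusted p = 0.0339), and Lipa by 0.62 ± 0.21 (limma adjusted p = 0.126).

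Asah1, the acid ceramidase, stood at 13.05, 11.92 and 12.60 in CA1 controls 1 to 3, at 12.22, 12.74 and 13.12 in the CA3 controls, and at 12.76 and 13.33 in the lesion arrays. The CA1 lesion array lay within its controls. On the second probe set of Asah1 the CA1 lesion array (12.19) lay above all CA1 controls (11.55 to 12.08). There the CA3 lesion array (12.16) lay within its controls (11.21 to 12.34). Psap, the precursor of the saposins that help lipid hydrolases, and Ppt1, a thioesterase that removes palmitate from proteins, had ranges of 0.63 and 0.29 over the 8 arrays. The range of Ppt1 was the narrowest of the 35 genes.

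Among 3 other lumenal proteins, Lgmn and Grn rose. Lgmn, an asparagine endopeptidase that matures cathepsins, stood at 13.41, 13.56 and 14.16 in CA1 controls 1 to 3, at 13.51, 13.63 and 14.48 in the CA3 controls, and at 14.59 and 14.42 in the lesion arrays. Grn, the gene of progranulin, stood at 13.00, 13.27 and 13.97 in CA1, at 13.35, 13.36 and 13.99 in CA3, and at 14.30 and 14.22 in the lesion arrays. Controls 1 and 2 were close to each other for both genes, and control 3 was higher. The differences between controls 3 and 1 were 1.82-fold and 1.74-fold (0.86 ± 0.16 and 0.80 ± 0.17, limma adjusted p = 0.0112 and 0.0211).

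Tpp1, a tripeptidyl peptidase, stood at 10.73, 10.78 and 11.57 in CA1 controls 1 to 3, at 11.49, 11.20 and 11.65 in the CA3 controls, and at 12.26 and 11.70 in the lesion arrays. It differed by 0.50 between controls 3 and 1 (limma adjusted p = 0.407), and the CA1 lesion array was the highest of the 8.

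For the cation channel and the proton pump, 0 of 4 genes were positive between controls 3 and 1, and none passed (2 had an unadjusted p under 0.05 in limma). Mcoln1, the calcium-releasing channel of the lysosomal membrane, stood at 12.36, 12.01 and 11.99 in CA1 controls 1 to 3, at 12.67, 12.19 and 11.99 in the CA3 controls, and at 12.62 and 12.48 in the lesion arrays (-0.52, limma adjusted p = 0.214). Atp6v0d1, a subunit of the membrane sector of the pump, stood at 15.77, 15.76 and 15.44 in CA1, at 16.18, 16.01 and 15.79 in CA3, and at 15.74 and 16 in the lesion arrays (-0.37, limma adjusted p = 0.185). Control 3 was the lowest of its field for both genes.

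Atp6v1h, a subunit of the cytosolic sector, stood at 14.76, 14.62 and 14.58 in CA1, at 15.11, 15.22 and 14.99 in CA3, and at 14.67 and 14.98 in the lesion arrays. Atp6v1a, which holds the catalytic site, kept within a range of 0.61. Their differences between controls 3 and 1 were -0.15 and -0.13. On the second probe set of Atp6v1a this difference was -0.44 ± 0.17 (limma adjusted p = 0.193). The mean lesion effect there was -0.31, against -0.18 on the brightest.

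**Figure D3:**
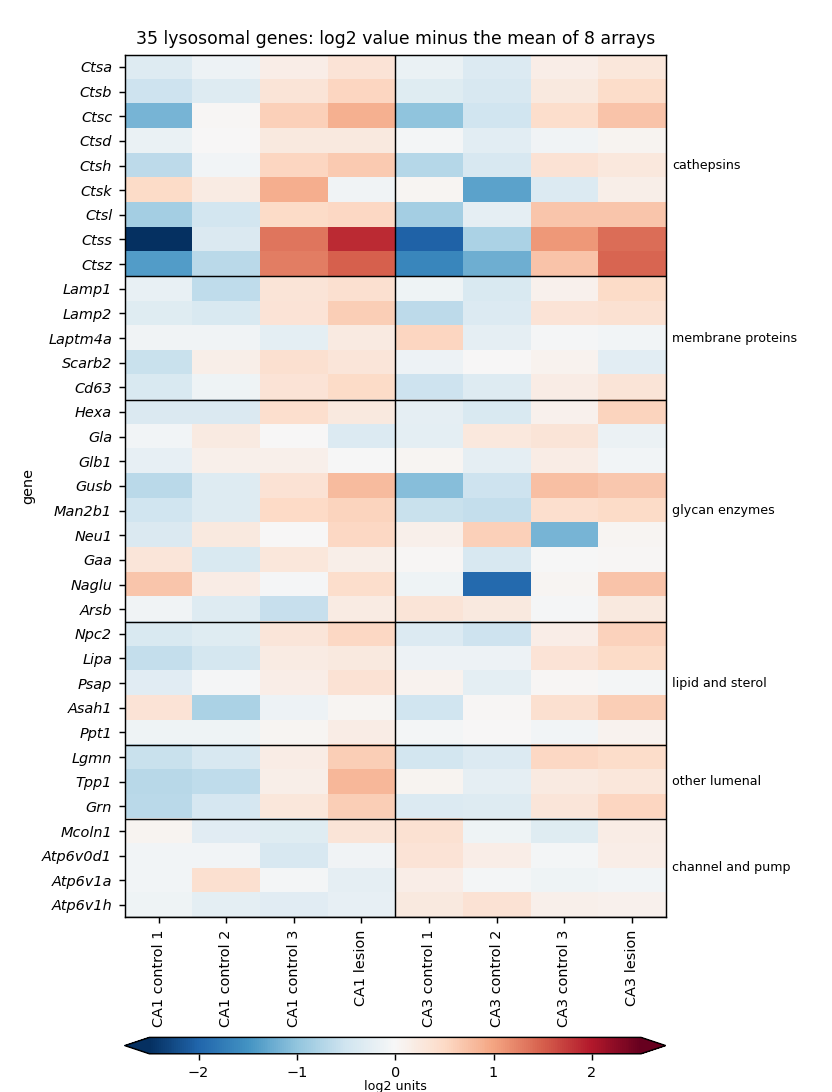
Log2 value of each of the 35 genes on each array minus the gene's mean over the 8 arrays, with red above and blue below the mean and genes grouped by role. Controls numbered 3 and the lesion arrays are red for most cathepsins, for Lamp2, Cd63, Gusb, Man2b1, Npc2, Lgmn and Grn, and the channel and pump genes are paler.

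Most of the 35 genes had higher values on the lesion arrays than on the average control, led by Ctss (4.53-fold) and Ctsz (3.90-fold), but 0 passed the test. In the limma fit with 1 coefficient per group, the average lesion effect over both fields was positive for 31 of 35 genes, against 52.2% of all probe sets tested, with a median of 0.49 against 0.02. An unadjusted p under 0.05 was found for 12 of 35, and for 6.41% of all probe sets tested, of which 0% passed after adjustment in either direction. The spread came from the controls, because there was 1 lesion array per field, taken to vary as the controls do.

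The largest differences were those of cathepsins. Ctss had a mean lesion effect of 2.18 ± 0.91 (SE, 2 lesion against 6 control arrays, limma adjusted p = 0.771) and Ctsz of 1.96 ± 0.70, followed by Ctsc (1.06), Gusb (0.97), Ctsl (0.81), Grn (0.77), Naglu (0.77), Npc2 (0.74), Tpp1 (0.74) and Lgmn (0.71). Man2b1 stood at 0.69, Lamp2 at 0.67, Ctsb at 0.66, Ctsh at 0.62, Lamp1 at 0.59, Cd63 at 0.54, Hexa at 0.53, Lipa at 0.49 and Ctsa at 0.41. The class medians were 0.74 for the other lumenal proteins, 0.66 for the cathepsins, 0.54 for the membrane proteins, 0.44 for lipid handling, 0.37 for the glycan enzymes and -0.00 for the channel and pump. The adjusted p-values of the 35 genes ran from 0.771 to 0.992.

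How far a lesion array stood out depended on the control it was set against. In CA1 the median gene exceeded control 1 by 0.67, control 2 by 0.61 and control 3 by 0.17. In CA3 it exceeded them by 0.59, 0.63 and 0.15. The microglia markers gave 3.42, 2.80 and 0.39 in CA1 and 2.89, 2.47 and 0.25 in CA3, and the median of all probe sets tested lay between -0.04 and 0.04 in these comparisons. Without the controls numbered 3 in both fields, an option chosen after seeing the data, 8 genes passed for the mean lesion effect, namely Ctsb, Ctsl, Ctss, Ctsz, Grn, Lamp2, Lgmn and Npc2, against 0.977% of all probe sets.

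For 15 genes the lesion array lay above all 3 controls of its field in both fields, which is 42.9% of the 35 against 7.98% of all probe sets tested. They were Ctsa, Ctsb, Ctsc, Ctsl, Ctss, Ctsz, Lamp1, Lamp2, Cd63, Man2b1, Npc2, Lipa, Ppt1, Tpp1 and Grn. For Ctsc this did not hold in CA3 on its second probe set. The step above the highest control was small, with a median of 0.21 in CA1 and 0.15 in CA3, and it ran from 0.03 for Ctsl to 0.69 for Tpp1 in CA1 and from 0.01 for Ctsl to 0.74 for Ctsz in CA3. By the brightest probe set, no gene of the 35 lay below all controls in both fields, as 8.03% of all probe sets did. On the second probe set of Atp6v1a, however, both lesion arrays did. They stood at 13.16 in CA1 (controls 13.17 to 13.50) and at 13.08 in CA3 (controls 13.13 to 13.69). In CA1 alone 23 of 35 lesion values lay above all controls and 3 below (Ctsk, Gla and Atp6v1a), against 21.2% and 24.8% of all probe sets. In CA3 alone 21 lay above and 2 below (Scarb2 and Atp6v1h), against 29.7% and 24.8%.

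The single fields gave like medians. The lesion effect had a median of 0.52 over the 35 genes in CA1 and 0.52 in CA3, with 31 and 28 genes positive against 50.7% and 54.5% of all probe sets, and 0 passed in either field in limma, where 2 and 1 had an unadjusted p under 0.05. Ctss had effects of 2.37 in CA1 and 1.99 in CA3, and Ctsz of 1.76 and 2.17. In these fits 0% of all probe sets passed in either direction, and 3.63% and 4.68% had an unadjusted p under 0.05.

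**Figure D4:**
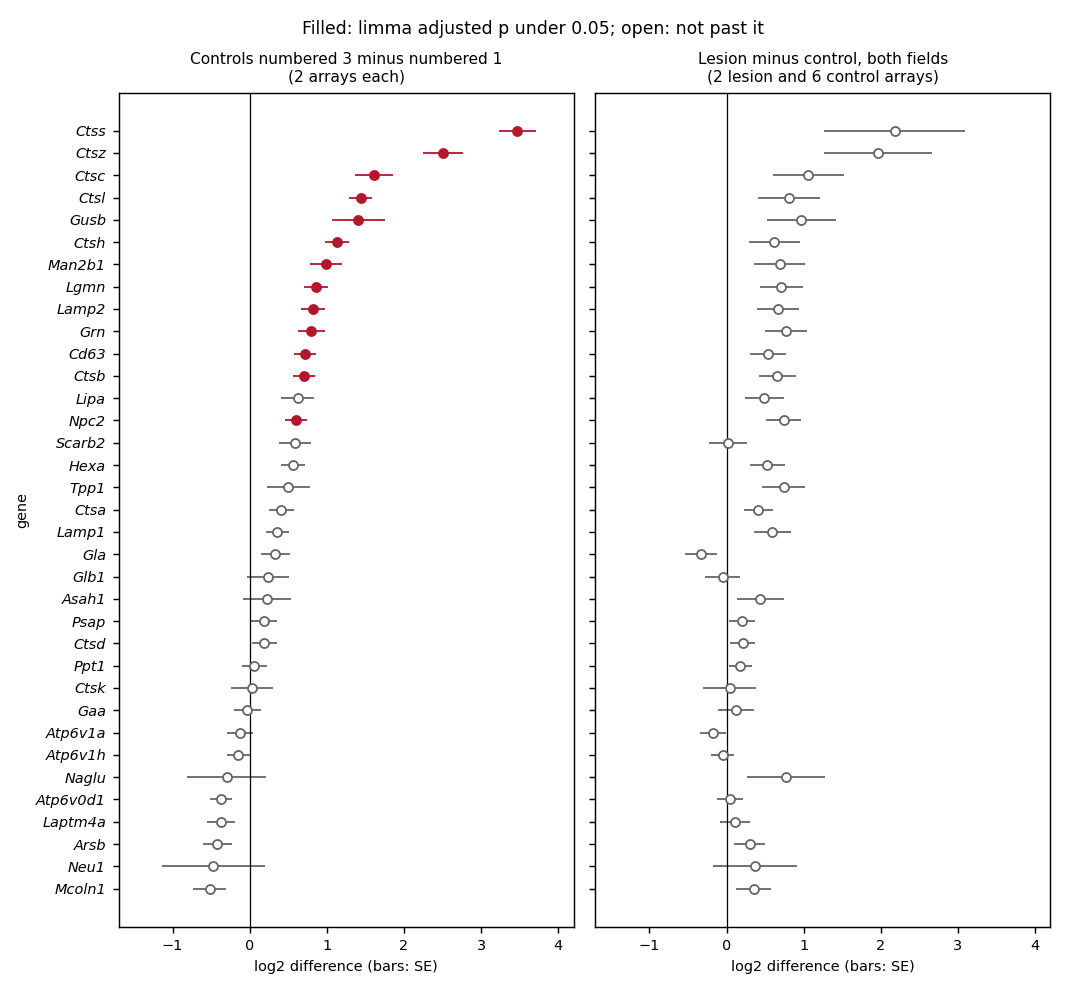
Log2 difference of each of the 35 genes between controls numbered 3 and numbered 1 (left) and between lesion and control arrays of both fields (right), with standard errors; the panels share control arrays and one order of genes. On the left 13 genes are past the threshold, led by Ctss at 3.47, and on the right 0 are, with Ctss at 2.18.

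No lysosomal gene passed between the controls of CA3 and CA1. The median difference of CA3 from CA1 was -0.01 over the 35 genes and -0.04 over all probe sets tested, 15 genes were higher (45.5% of all probe sets were) and 20 lower in CA3, and 0 passed in limma, against 0.285% of all probe sets higher and 0.242% lower. Of the 35 genes 3 had an unadjusted p under 0.05, and 8.31% of all probe sets had. Ctsk was 2.10-fold lower in CA3 (-1.07 ± 0.34, SE, 3 arrays per field, limma adjusted p = 0.360), and all its CA3 controls lay below all its CA1 controls. Without CA3 control 2 the difference was -0.68. Atp6v1h and Arsb were higher in CA3 by 0.45 ± 0.15 and 0.51 ± 0.20 (limma adjusted p = 0.385 and 0.528). They and Atp6v0d1 were the 3 genes with all CA3 controls above all CA1 controls, as 6.06% of all probe sets were. The reverse order held for Ctsk and for 8.85% of all probe sets. On the second probe set of Arsb the fields overlapped, with CA3 control 2 (10.39) below CA1 control 2 (10.57). There the difference of CA3 from CA1 was 0.21 ± 0.29 (limma adjusted p = 0.880).

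The lesion effects of the fields were also set against each other. Of the 35 genes 0 passed for the lesion effect in CA3 minus that in CA1 in limma, none had an unadjusted p under 0.05, and the median was -0.05, with 13 genes positive against 51.0% of all probe sets. Of all probe sets tested 0% passed and 3.09% had an unadjusted p under 0.05. The widest gaps were those of Ctsk (1.32 ± 0.68) and Naglu (1.23 ± 1.02) upwards and of Tpp1 (-0.97 ± 0.55) downwards, each with a limma adjusted p of 1.00. Without CA3 control 2 the gap of Naglu was 0.59. With standard errors of this size, differences of about the size of the lesion effects themselves were not detectable.

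Among other lysosomal genes 8 rose and 2 pump subunits fell between controls 1 and 3. Of the lysosomal genes and inhibitors on a second list, 47 had a probe set and 44 passed the filter. Between controls 3 and 1, 8 of the 44 rose and 2 fell (median 0.09), against 2.87% and 1.64% of all probe sets. Those that rose were Laptm5 (5.98 ± 0.38) and Cd68 (3.88 ± 0.34), which are also on the microglia list, the amino acid exporter Ctns (2.44 ± 0.57), the transcription factor Mitf (1.43 ± 0.33), the ganglioside activator Gm2a (1.17 ± 0.25), the galactosylceramidase Galc (1.07 ± 0.23), Laptm4b (0.72 ± 0.16) and the fucosidase Fuca1 (0.58 ± 0.15). Their limma adjusted p-values ran from 2.17e-06 to 0.0439. The 2 that fell were the pump subunits Atp6v0c (-0.54 ± 0.14) and Atp6v1e1 (-0.65 ± 0.17), with limma adjusted p = 0.0471 and 0.0489.

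Taking the pump subunits and accessory proteins of both lists together, a grouping made after the values were seen, 14 of 16 genes were lower in controls 3 than in controls 1 and 2 higher, against 49.6% of all probe sets that were higher. The median was -0.19 (-0.01 over all probe sets), and values ran from -0.73 for Atp6v1g2 to 0.44 for Atp6v0e1. For the mean lesion effect 0 of the 44 genes passed and 4 had an unadjusted p under 0.05, against 0% and 6.41% of all probe sets, with a median of 0.08 against 0.02. Lesion arrays lay above all controls in both fields for 6 of the 44 genes (Fuca1, Gm2a, Cst3, Cd68, Laptm5 and Cln6) and below all in both for 8 (Igf2r, Sort1, Smpd1, Acp2, Atp6ap1, Atp6v1b2, Atp6v1c1 and Atp6v1e1). That is 13.6% and 18.2%, against 7.98% and 8.03% of all probe sets tested.

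Of the 35 genes, 12 had several probe sets, and these differed for several of them, also for Ctsc, Arsb, Asah1 and Atp6v1a as given above. With each gene averaged over its probe sets, 10 passed between controls 3 and 1, against 3.34% of all tested. Gusb, Lgmn and Man2b1 then did not pass. The mean lesion effect then had a median of 0.35, with 28 genes positive. A second probe set of Lamp1 gave -0.11 for the mean lesion effect where the brightest gave 0.59, and another was too dim to be tested. The second probe sets of Neu1 (-0.79 against 0.37) and Lamp2 (0.14 against 0.67) differed as well. For Lgmn and Man2b1 the other probe set was too dim to be tested. Between controls 3 and 1 the second probe set of Lamp2 gave 0.74 with a limma adjusted p of 0.0696.

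The 13 genes past the threshold between controls 3 and 1 and the 22 others were also set beside their promoters. Of 12 promoters found for the 13 genes, 1 held CACGTG (Cd63, 8.3%) and 0 held TCACGTG. Of 16 found for the 22 others, 6 held both (37.5%). The shares over all 27457 promoters were 6.7% for CACGTG and 3.43% for TCACGTG, so the 13 genes lay near them. This is a description of letters in a short window and says nothing about the factors that bind them.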

How the data were processed

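Total RNA of 8 samples was measured on expression arrays. The deposited values are linear signal intensities, 1 per probe set and array, and equal 2% trimmed means show that they were scaled to a common level; the software and the summary of probes are not stated in the labels or file headers. Values were used at that scaling as log2(value + 16). After removal of 57 control probe sets, probe sets under the 40th percentile of mean log2 value were left out, which left 18625. Gene names came from the platform annotation, and all 35 gene identifiers matched RefSeq with 0 symbols changed. Groups and numbers came from the sample titles.

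Models were fitted to all these probe sets with limma 3.58.1 in R 4.3.3, with variances following the signal and Benjamini-Hochberg adjustment over all probe sets tested (threshold 0.05). The fit with 1 coefficient per group used 8 arrays (4 residual degrees of freedom), and the fit of field and number used the 6 controls (2 degrees). The fits were run on simulated data to check that known differences came back at their size. The simulated arrays were independent, without deviations shared by arrays of one number. The rate of false calls in the real data was therefore not tested. Named with values on every array are the cathepsins, genes past the threshold, and the 3 genes of widest range in each other class. Of the second list, genes past the threshold are named. The genes and lists were chosen with earlier results of these data known. Other settings tried were pseudocounts of 1 and 64, quantile normalisation, a 60th percentile filter, testing without a filter, no variance trend, removal of cross-hybridising probe sets, means over probe sets, the replicate block, other sets of arrays, and each array left out. The files name no genome build; promoter coordinates are those of RefSeq for GRCr8. Arrays have no read depth, and their number limits the precision.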

Additional observations from a re-analysis of the deposited data

Results flagged for a closer look

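Ctsk drew attention because its lesion arrays moved in opposite directions in the fields. The CA1 lesion array (12.05) lay below all CA1 controls (12.35 to 13.05), and the CA3 lesion array (12.30) lay above all CA3 controls (10.81 to 12.19). The difference of the lesion effects was 1.32 ± 0.68 on the log2 scale, with 1 lesion array per field, and did not pass in limma (adjusted p = 1.00). Controls of the fields themselves stood apart for this gene, with means of 12.67 in CA1 and 11.60 in CA3.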

How the results depend on the processing

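For the 12 counts and medians over the 35 genes, 210 values under other settings stayed within 1.5 times the count or within the spread of the list median between control arrays (0.29), and 8 did not. The 210 include counts that stayed at 0. In most settings of the lesion comparisons 0 of all probe sets passed, so those counts say little about stability. The titles give controls of both fields the same numbers, and deviations of same-numbered controls from their field means correlated at 0.155, 0.0601 and 0.306 for numbers 1 to 3 over 18625 probe sets; every control correlated best with its own number, but number 2 lies under 0.1, so the lesion and field comparisons carry no block; the comparison of controls 3 and 1 uses the number as its own term and rests on the numbers being shared. With the number as a replicate block, 14 genes passed for the mean lesion effect (all higher, against 2.51% of all probe sets), 11 for CA1 and 10 for CA3 (all higher, against 1.13% and 1.10%), and 1 between the fields, Ctsk (-1.07, limma adjusted p = 0.0334, against 0.719% lower). Without the controls numbered 3 in both fields, 8 passed for the mean lesion effect. Between controls 3 and 1, 13 passed, 0 without a variance trend, and 3 to 15 with 1 array left out. When each gene was averaged over its probe sets, the mean lesion effect of Lgmn was -0.24 and that of Man2b1 -0.37, since a dim probe set enters at equal weight.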

Other observations

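Values of 3 genes of the second list, picked after their values were seen, are given for both comparisons. Cst3, the gene of the cysteine protease inhibitor cystatin C, had a mean lesion effect of 0.44 ± 0.14 (SE, limma adjusted p = 0.771) and differed by 0.09 ± 0.14 between controls 3 and 1 (limma adjusted p = 0.812), with control 3 the highest control in both fields. Acp2, the lysosomal acid phosphatase, had a mean lesion effect of -0.47 ± 0.20 (limma adjusted p = 0.771) and differed by -0.09 ± 0.22 between controls 3 and 1. Mitf differed by 1.43 ± 0.33 between controls 3 and 1 and had a mean lesion effect of 0.01 ± 0.45. Whether the differences of a gene are unequal was not tested.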
